A study of Mus musculus with 4 samples.

Results

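Transcription factors of the primitive streak and of the first mesoderm that leaves it were followed in messenger RNA of mouse embryonic stem cells (ESCs) that had been differentiated towards cardiomyocytes. The group consisted of 10 genes, chosen by name from the 24637 genes of the table: the T-box factors *T*, *Eomes* and *Tbx6*, the homeobox factors *Mixl1*, *Gsc*, *Lhx1* and *Evx1*, and the basic helix-loop-helix factors *Mesp1*, *Mesp2* and *Msgn1*. All 10 genes were found in the table, and their positions are given in NCBIM37 (mm9). There were 4 libraries, 2 labelled WT (Taf4+/+) and 2 labelled *Taf4a*-/- (Taf4-/-). The ESC lines were derived from blastocysts of crosses between *Taf4a*+/- mice (C57Bl6J), and the null allele lacks exons of *Taf4a*, the gene of a subunit of the general transcription factor TFIID. Before differentiation all lines were kept on feeder fibroblasts with LIF. By the study's methods, cells of both genotypes were then grown as embryoid bodies (EBs) for 5 days in medium with fetal calf serum. They were then kept for 9 more days on gelatin, without sorting. The labels give day 9 of cardiac differentiation and do not say from which step it was counted. It was taken here as day 9 on gelatin. The study used 2 independent lines of each genotype, and the labels do not say which line gave which library, so differences between libraries of one genotype may be those of lines, of cultures or of library preparation, which cannot be told apart.

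The primitive streak is the site on the posterior side of the gastrulating embryo at which epiblast cells leave their epithelium and become mesoderm and definitive endoderm. Nodal, Wnt and Bmp signals switch on *T* and *Eomes* there, and these T-box factors in turn are needed for the exit of cells and for genes such as *Mesp1*. In ESC cultures the same factors are known as a transient wave in early EBs that precedes cardiac genes, and they are normally silent in mature cardiomyocytes.

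The DNA just upstream of the start sites is given for 4 of the genes to show what the promoters of this group look like, since a T-box factor binds a short core motif and TFIID binds core promoters. Promoter entries were matched for 9 of the 10 genes in RefSeq (GRCm38.p6), all but *Mixl1*, and each was found once by exact match on its chromosome in NCBIM37 (mm9). The motifs searched on both strands, in windows from 250 bases before to 50 after the start, were the T-box core AGGTGT, the TATA box core TATAAA and the TCF/LEF core ATCAAAG. The windows of *T* (chr17:8627038-8627287, plus strand), *Evx1* (chr6:52263242-52263491, plus strand), *Tbx6* (chr7:133924747-133924996, plus strand) and *Eomes* (chr9:118387057-118387306, plus strand) are shown 5′ to 3′ for the 250 bases before the start site, with motif matches in capitals.
T: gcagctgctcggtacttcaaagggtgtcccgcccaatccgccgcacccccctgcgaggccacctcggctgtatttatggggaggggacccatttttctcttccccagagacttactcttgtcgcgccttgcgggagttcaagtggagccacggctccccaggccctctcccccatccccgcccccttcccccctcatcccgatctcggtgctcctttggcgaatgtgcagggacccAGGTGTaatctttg
Evx1: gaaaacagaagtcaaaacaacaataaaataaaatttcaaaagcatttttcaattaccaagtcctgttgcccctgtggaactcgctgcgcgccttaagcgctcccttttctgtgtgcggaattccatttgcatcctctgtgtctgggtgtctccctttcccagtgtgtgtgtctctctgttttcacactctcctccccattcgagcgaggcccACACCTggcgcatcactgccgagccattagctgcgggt
Tbx6: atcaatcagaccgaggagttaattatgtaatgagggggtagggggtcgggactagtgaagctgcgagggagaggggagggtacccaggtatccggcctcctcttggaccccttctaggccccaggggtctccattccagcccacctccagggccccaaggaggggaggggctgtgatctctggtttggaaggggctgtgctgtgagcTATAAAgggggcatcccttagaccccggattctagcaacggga
Eomes: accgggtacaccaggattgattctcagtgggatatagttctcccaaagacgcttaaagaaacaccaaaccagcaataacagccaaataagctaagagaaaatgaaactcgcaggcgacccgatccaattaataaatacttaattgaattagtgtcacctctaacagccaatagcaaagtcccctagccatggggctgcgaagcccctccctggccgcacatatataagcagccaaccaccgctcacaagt

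The T-box core lies 14 bases before the start of *T* and, on the opposite strand, 38 bases before the start of *Evx1*. The TATA core of *Tbx6* lies 43 bases before its start and that of *Gsc* 164 bases before, and the *Eomes* window holds none of the searched motifs. Distances are from the RefSeq start, which matches the gene start given below for *T*, *Evx1* and *Tbx6*. For *Gsc* it lies 91 bases inside the annotated gene, and for *Eomes* upstream of the annotated gene. Only exact letters were searched, so a near match such as tatataa in the *Eomes* window was not counted. The T-box core was present in the windows of 4 of the 9 genes (*T*, *Evx1*, *Mesp1* and *Mesp2*) and in 13.7% of 32851 promoters of the same length. The TATA core was present in 2 of the 9 (*Tbx6* and *Gsc*) against 13.6% of all promoters, and the TCF/LEF core in 2 of the 9 (*Mesp1* and *Msgn1*) against 3.73%. These matches are a description of the letters and not of binding.

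Depth and labels were checked first. The deposited values are counts of reads per gene divided by a size factor for each library. The libraries held 21732746 to 27733034 reads on genes, and 1 read was worth 0.877 to 1.11 normalized counts. *Taf4a* itself was measured at 889 and 678 normalized counts in WT replicate 1 and replicate 2 and at 1722 and 1799 in the libraries labelled *Taf4a*-/-, a log2 fold change of 1.18 ± 0.16 (SE, adjusted p = 0.00569). The counts run over all exons of the gene, those outside the deletion included, so its RNA does not check the genotype, and directions given here are those of the libraries as labelled. The labels call the cells cardiac, and all 6 cardiomyocyte markers examined (*Tnnt2*, *Myh6*, *Myh7*, *Actc1*, *Myl7* and *Myl2*) were present in every library, with summed normalized counts of 26736 and 23674 in the WT libraries and 2636 and 2354 in those labelled *Taf4a*-/-.

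RNA of 9 of the 10 factors was abundant enough to be tested, which took a mean over the libraries of 10 normalized counts or more. The comparison of genotypes asks how the levels of this early programme differ at the cardiac stage when *Taf4a* is lost. No factor was called between the genotypes at an adjusted p under 0.05, while 11.3% of the 16926 genes tested were called higher in the libraries labelled *Taf4a*-/- and 17.3% lower. On the log2 scale, 8 of the 9 fold changes lay above 0 and 1 below, and their median was 1.49 against -0.01 for all genes tested. The unadjusted p was under 0.05 for 2 of the 9, *Eomes* and *Mixl1*, and for 42.5% of all genes tested. This fit held no block. With replicate number as a block, *T*, *Eomes* and *Mixl1* were called higher, and 1536 of all genes tested were. The labels do not say that same-numbered libraries belong together. Most of the factors shared a difference inside the WT group. WT replicate 2 was the lowest of the 4 libraries for 8 of the 9 tested factors (31.8% of all genes tested), and WT replicate 1 lay at least 3-fold above it (on normalized count + 1) for 7 of the 9, a size reached by 1.46% of all genes tested. In bulk RNA of this kind, fewer cells of a type and less RNA per cell cannot be told apart.

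**Figure D1:**
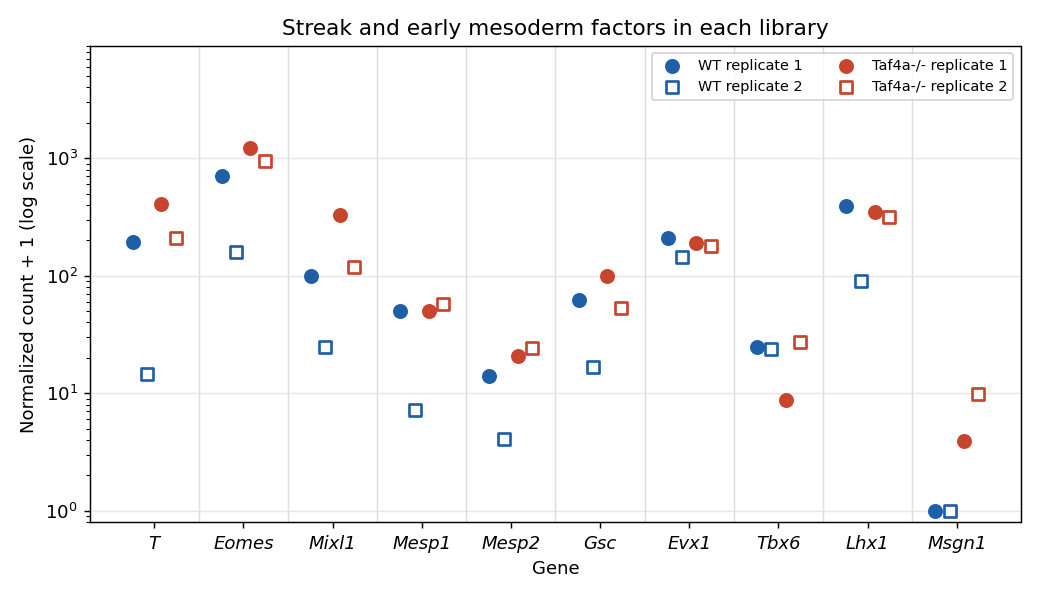
Normalized counts plus 1 (log axis) of the 10 streak and early mesoderm factors in each of the 4 libraries, with WT in blue and the libraries labelled *Taf4a*-/- in red, replicate 1 as filled circles and replicate 2 as open squares. WT replicate 2 is the lowest point for *T*, *Eomes*, *Mixl1*, *Mesp1*, *Mesp2*, *Gsc*, *Evx1* and *Lhx1*, and both WT points of *Msgn1* are at 0 counts.

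Among the T-box factors, *T* (Brachyury, ENSMUSG00000062327, chr17:8627288-8635361, plus strand), required for posterior mesoderm and notochord, was measured at 194 and 13.5 normalized counts in WT replicate 1 and replicate 2 and at 405 and 210.1 in the libraries labelled *Taf4a*-/-, from 221, 13, 414 and 190 reads. Both libraries labelled *Taf4a*-/- lay above both WT libraries, but *Taf4a*-/- replicate 2 was only just above WT replicate 1. The group means were 104 ± 127 in WT and 308 ± 138 (SD, n = 2 each). The log2 fold change of *T* was 2.46 ± 1.12 (SE), with an interval from -0.27 to 5.19 and an adjusted p of 0.148. Within WT, replicate 1 held 14.3 times the level of replicate 2, with a 95% counting interval of 8.22 to 27.4. That log2 difference of 3.75 was larger than in 99.95% of the genes tested, whereas the libraries labelled *Taf4a*-/- differed 1.93-fold (1.62 to 2.30).

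*Eomes* (ENSMUSG00000032446, chr9:118387330-118395250, plus strand), which drives the formation of anterior mesoderm and definitive endoderm, was the most abundant of the 10 factors. Its normalized counts were 706 and 158 in the WT libraries and 1225 and 940.1 in those labelled *Taf4a*-/-, from 805, 152, 1251 and 850 reads. The genotypes did not overlap, with means of 432 ± 387 in the WT libraries and 1082 ± 201.2 in those labelled *Taf4a*-/- (SD, n = 2 each). The log2 fold change of *Eomes* was 1.68 ± 0.64 (SE, interval 0.13 to 3.23), and with an adjusted p of 0.0967 it was not called. WT replicate 1 exceeded replicate 2 by 4.47-fold (counting interval 3.75 to 5.35), and *Taf4a*-/- replicate 1 exceeded replicate 2 by 1.30-fold (1.19 to 1.42).

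*Tbx6* (ENSMUSG00000030699, chr7:133924997-133929074, plus strand), which turns bipotent posterior cells to paraxial mesoderm and away from a neural fate, was not low in WT replicate 2. It was measured at 23.7 and 22.9 normalized counts in the WT libraries and at 7.83 and 26.5 in those labelled *Taf4a*-/-, from 27, 22, 8 and 24 reads. The WT values lay within their counting error of each other and the libraries labelled *Taf4a*-/- did not, with replicate 1 at 0.295 of replicate 2 (counting interval 0.115 to 0.679). The log2 fold change was -0.64 ± 0.62 (SE, adjusted p = 0.467), and it was 0.18 without *Taf4a*-/- replicate 1.

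Of the homeobox factors, *Mixl1* (ENSMUSG00000026497, chr1:182623174-182627165, minus strand), a target of Nodal signals in the streak, stood at 99.1 and 23.9 normalized counts in the WT libraries and 325.0 and 118 in those labelled *Taf4a*-/-. These values came from 113, 23, 332 and 107 reads. The genotypes did not overlap, but WT replicate 1 and *Taf4a*-/- replicate 2 lay close together. Means were 61.5 ± 53.2 in the WT libraries and 222 ± 146 in those labelled *Taf4a*-/- (SD, n = 2 each). The log2 fold change of *Mixl1* was 1.98 ± 0.75 (SE, interval 0.17 to 3.80, adjusted p = 0.0951). *Mixl1* was the factor that differed most between the libraries labelled *Taf4a*-/- with replicate 1 higher, at 2.75-fold (counting interval 2.20 to 3.45), and in WT the same ratio was 4.15 (2.63 to 6.80).

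*Gsc* (Goosecoid, ENSMUSG00000021095, chr12:105709419-105711537, minus strand), a repressor made in the anterior streak and organizer, was present at 61.4 and 15.6 normalized counts in the WT libraries and 98.9 and 52.0 in those labelled *Taf4a*-/-. The genotypes overlapped, because WT replicate 1 exceeded *Taf4a*-/- replicate 2. WT replicate 1 stood at 3.94 times replicate 2 (counting interval 2.23 to 7.41), the fold change between genotypes was 1.18 ± 0.68 on the log2 scale (SE) and its adjusted p was 0.234.

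*Lhx1* (ENSMUSG00000018698, chr11:84331479-84338923, minus strand), a LIM homeobox factor of the anterior streak and of early anterior mesendoderm, was measured at 392 and 89.4 normalized counts in the WT libraries and at 349 and 317 in those labelled *Taf4a*-/-. WT replicate 1 was the highest of the 4 libraries and WT replicate 2 the lowest, 4.39-fold apart (counting interval 3.47 to 5.59). The libraries labelled *Taf4a*-/- lay between them, with a mean of 333 ± 22.7 against 241 ± 214 in WT (SD, n = 2 each). The log2 fold change of *Lhx1* was 0.83 ± 0.63 (SE, adjusted p = 0.358).

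*Evx1* (ENSMUSG00000005503, chr6:52263492-52268372, plus strand), an even-skipped factor of the posterior streak, showed the least spread of the 10. Its level was 207 and 144 normalized counts in the WT libraries and 187 and 179 in those labelled *Taf4a*-/-. The libraries labelled *Taf4a*-/- lay between those of WT, and the log2 fold change was 0.08 ± 0.25 (SE, interval -0.53 to 0.69, adjusted p = 0.829). WT replicate 1 exceeded replicate 2 by 1.43-fold (counting interval 1.16 to 1.78). Exons of *Evx1* share 73 bases with *5730457N03Rik*, a long noncoding RNA gene on the other strand, listed at 129, 109, 139 and 153 normalized counts. The library kit does not mark strand, so reads in that overlap cannot be assigned to either gene.

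*Mesp1* (ENSMUSG00000030544, chr7:86937127-86938674, minus strand), the factor that marks the precursors of the heart as they leave the streak, was measured at 49.1 and 6.23 normalized counts in the WT libraries and 48.9 and 56.4 in those labelled *Taf4a*-/-, from 56, 6, 50 and 51 reads. The library with the low value was WT replicate 2 alone, and the other three were nearly level. WT replicate 1 was 7.88 times as high as WT replicate 2 (counting interval 3.40 to 22.4), while the log2 fold change between genotypes was 1.49 ± 0.87 (SE, adjusted p = 0.240). Its neighbour *Mesp2* (ENSMUSG00000030543, chr7:86955613-86958317, plus strand), which acts with it in early mesoderm and later sets segment borders, stood at 13.2 and 3.12 normalized counts in the WT libraries and 19.6 and 23.2 in those labelled *Taf4a*-/-, from 15, 3, 20 and 21 reads. The genotypes of *Mesp2* did not overlap, but WT replicate 1 and *Taf4a*-/- replicate 1 lay close together, at 15 and 20 reads. WT replicate 1 held 4.22 times the *Mesp2* level of replicate 2 (counting interval 1.19 to 22.7). The log2 fold change of *Mesp2* was 1.55 ± 0.68 (SE, interval -0.11 to 3.21, adjusted p = 0.138). Transcripts of *Mesp1* and *Mesp2* share an exact run of 42 bases, the longest between any pair of the 10 factors. Only a read lying wholly inside that run could not be assigned to either gene, and the read length is not given here.

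*Msgn1* (Mesogenin 1, ENSMUSG00000047002, chr12:11215188-11215754, minus strand), a presomitic mesoderm factor downstream of *Tbx6* and Wnt, was near the limit of detection. No read of it was counted in either WT library, and 3 and 8 reads (2.94 and 8.85 normalized counts) were counted in the libraries labelled *Taf4a*-/-. A count of 0 allows up to 3 reads in a library, as many as *Taf4a*-/- replicate 1 held, so no fold is given. With a mean of 2.95 normalized counts *Msgn1* was not tested. When the limit on the mean was dropped it was called (adjusted p = 0.0394, with 6.99% of 24637 genes called higher), on a fitted fold that depends on the added count.

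Of the 9 tested factors, *T*, *Eomes*, *Mixl1* and *Mesp2* had both libraries labelled *Taf4a*-/- above both WT libraries, a share of 4 of 9 beside 34.5% of all genes tested, and no factor had both below. The difference of WT replicate 1 from WT replicate 2 had a median over the 9 factors of 2.01 on the log2 scale of normalized count plus 1. For all genes tested its median was -0.02, with 5th and 95th percentiles of -0.80 and 0.89. *Mesp1*, *Eomes*, *Lhx1*, *Mixl1*, *Gsc* and *Mesp2* exceeded 98.9% to 99.8% of the genes tested, *Evx1* exceeded 88.9% and *Tbx6* 56.9%. The same median between the libraries labelled *Taf4a*-/- was 0.14, against -0.003 for all genes tested. In sum over the 10 factors, WT replicate 1 held 1745 normalized counts, WT replicate 2 held 477, and the libraries labelled *Taf4a*-/- held 2670 and 1932. With 1 library on each side, a difference between libraries has no replicate check, and its counting interval covers counting error only.

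**Figure D2:**
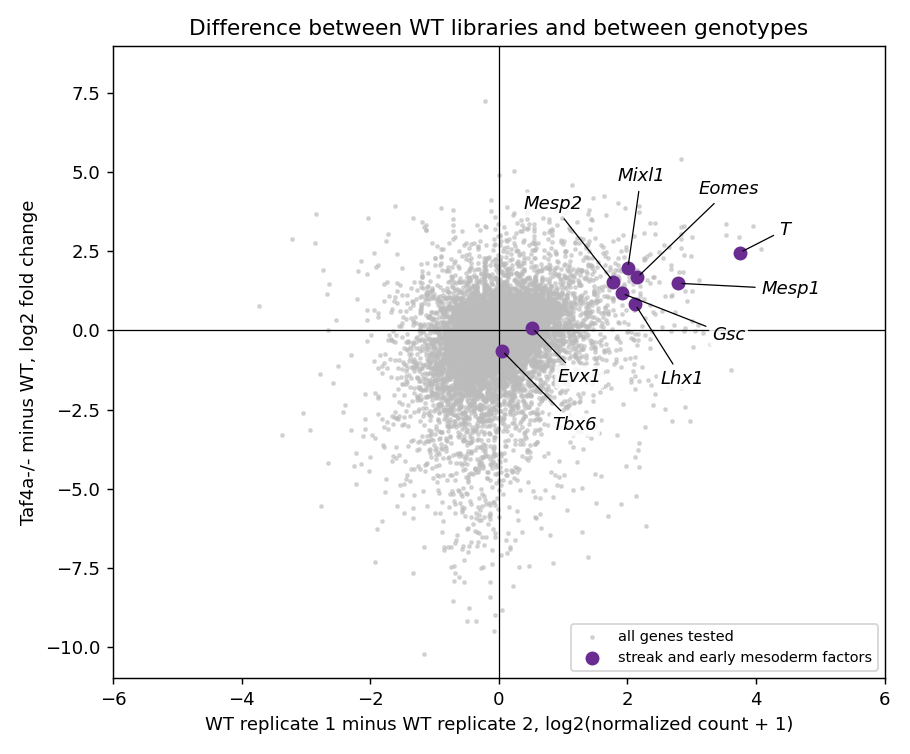
Each gene tested is a point placed by the difference between the WT libraries (horizontal, log2 of normalized count + 1) and by the log2 fold change of the libraries labelled *Taf4a*-/- against WT (vertical), with the 9 tested factors in purple. *T*, at 3.75 and 2.46, lies farthest to the right of the factors, 6 others lie between 1.78 and 2.79 on the horizontal axis, *Evx1* and *Tbx6* lie in the body of the cloud, and 4 genes fall outside the axes.

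The comparison of genotypes depended on which WT library was kept. Without WT replicate 1, 5 of the 9 factors were called higher in the libraries labelled *Taf4a*-/- (14.6% of all genes tested): *T* with a log2 fold change of 4.34 (adjusted p = 0.0173), *Eomes* with 2.76 (0.0152), *Mesp1* with 2.89 (0.0203), *Mesp2* with 2.44 (0.0331) and *Lhx1* with 1.89 (0.0164). Without WT replicate 2, none was called (4.4% of all genes tested were called higher), and the median log2 fold change of the factors was 0.22 in place of 1.49. The fold changes of *Lhx1* and *Evx1* then turned to -0.23 and -0.18, and those of *T*, *Eomes*, *Mixl1* and *Gsc* were 0.59, 0.60, 0.98 and 0.22. Leaving out *Taf4a*-/- replicate 2 brought *Mixl1* alone past the threshold (log2 fold change 2.71, adjusted p = 0.0206, 3.69% of all genes tested called higher), and without *Taf4a*-/- replicate 1 none was called. In each of these fits the lone library was assumed to vary like the others. Without WT replicate 1, the WT side was WT replicate 2 alone, which held 6 reads of *Mesp1* and 3 of *Mesp2*.

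**Figure D3:**
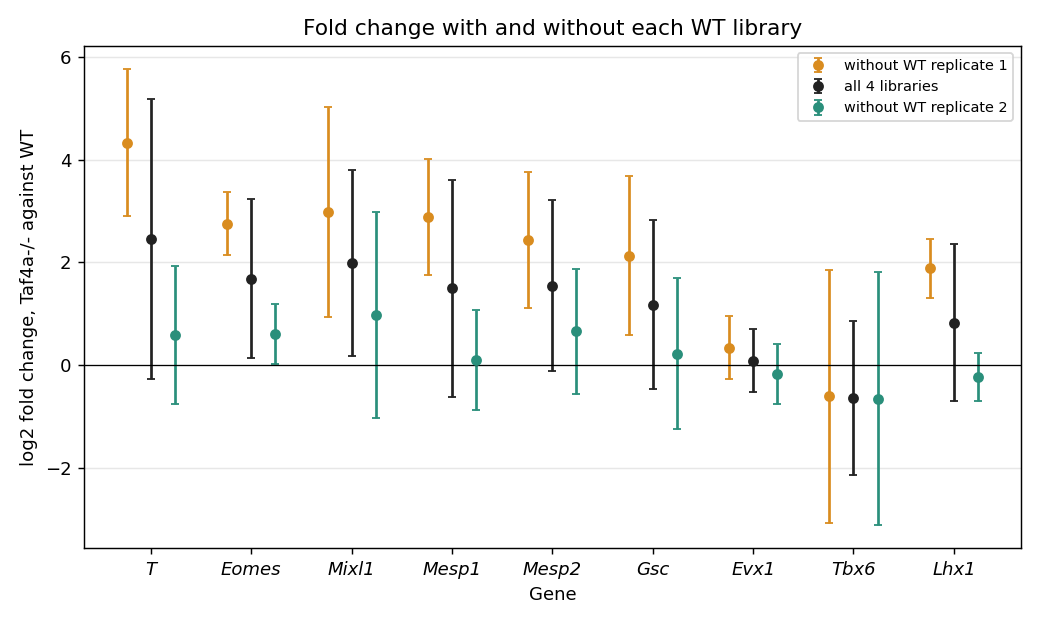
Log2 fold change of the libraries labelled *Taf4a*-/- against WT for the 9 tested factors, with 95% intervals, from all 4 libraries (black), without WT replicate 1 (orange) and without WT replicate 2 (green). For *T* the value falls from 4.34 through 2.46 to 0.59, and for *Tbx6* the 3 values are nearly the same.

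Levels of different genes were compared per kilobase of annotated exon. In WT, *Eomes* stood first at a mean of 104 normalized counts per kb, followed by *Evx1* (61.1), *Lhx1* (58.4), *T* (44.8), *Gsc* (30.4), *Mixl1* (26.8), *Mesp1* (21.7), *Tbx6* (12.9), *Mesp2* (4.20) and *Msgn1* (0). Neighbours in this order overlapped in their libraries down to *Tbx6*, so that only *Tbx6* from *Mesp2*, and *Mesp2* from *Msgn1*, were separated. In the libraries labelled *Taf4a*-/- the order of means per kb was *Eomes* (260), *T* (133), *Mixl1* (96.6), *Lhx1* (80.9), *Evx1* (63.6), *Gsc* (59.6), *Mesp1* (41.3), *Mesp2* (11.1), *Msgn1* (10.4) and *Tbx6* (9.53). There *Eomes* was separated from *T*, *Lhx1* from *Evx1* and *Mesp1* from *Mesp2*, and the other neighbours overlapped.

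The genes whose course over the 4 libraries was most like that of the 3 most abundant factors, on the log2 scale with each gene centred on its own mean, were found by Euclidean distance. For *Eomes* these were *En2*, a homeobox gene of the midbrain and hindbrain, at a distance of 0.115, *Gm17238* (0.212) and *Vrtn*, a regulator of vertebral number (0.221). For *Lhx1* they were *Khdrbs2*, an RNA-binding protein (0.181), *Fgf5*, a growth factor of the postimplantation epiblast (0.214), and *Chrna7*, an acetylcholine receptor subunit (0.238). For *T* they were the neural bHLH gene *Olig3* (0.482), *Gm10430* (0.724) and the streak ligand *Wnt8a* (0.854). Of the other factors, *Mesp2* was the closest to *Eomes*, in place 28 among all genes tested. In WT replicate 2, *En2* and *Gm17238* were at 3.12 normalized counts, *Khdrbs2* at 4.16, and *Olig3* and *Gm10430* at 0. The distances of these genes rest on few reads and on the added count. With 4 libraries such a distance is a description only.

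The signals that act on the streak were examined next, as 19 genes of the Nodal, Wnt, Bmp and Fgf pathways (ligands, coreceptors, antagonists, convertases and the Nodal effector *Foxh1*), of which 17 were tested. Of these, 5 rose in the libraries labelled *Taf4a*-/- and 1 fell. Beside this list and those below stand the shares of all genes tested, 11.3% called higher and 17.3% lower. *Fgf4*, a growth factor of pluripotent cells, was measured at 232 and 109 normalized counts in the WT libraries and at 1324 and 1752 in those labelled *Taf4a*-/-, a log2 fold change of 3.25 ± 0.36 (SE, adjusted p = 0.00326). The Nodal antagonist *Lefty1* was measured at 284 and 89.4 in the WT libraries and at 690.1 and 662 in those labelled *Taf4a*-/- (log2 fold change 2.08 ± 0.50, adjusted p = 0.0285). The other three that rose were *Nodal* (1.38), *Gdf3* (1.99) and *Lefty2* (2.06), each called in the same fit. *Furin*, a convertase that matures Nodal, fell by 0.56 on the log2 scale (adjusted p = 0.0237), and the Nodal coreceptor *Tdgf1* (1257, 302, 2045 and 2624 normalized counts in the order above) was not called (log2 fold change 1.91, adjusted p = 0.0600). The list shared the gap between the WT libraries: 9 of its 17 tested genes were at least 3-fold higher in WT replicate 1, among them *Wnt8a* at 94.7 against 5.20 normalized counts and *Cer1* at 151 against 17.7. The median fold change of the list was 1.38 on the log2 scale. Without WT replicate 1, 11 of the 17 were called higher, with *Tdgf1* (2.93) and *Wnt8a* (5.27) among them, and the calls of *Nodal*, *Lefty2* and *Furin* were lost without *Taf4a*-/- replicate 2 (adjusted p = 0.0538, 0.0592 and 0.153). With no variance trend in the fit, 2 streak signals were called higher and none lower. The calls of *Nodal* and *Furin* were lost also without *Taf4a*-/- replicate 1 (0.0528 and 0.148), and that of *Lefty2* without WT replicate 2 (0.0535).

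Genes of presomitic and paraxial mesoderm, the tissue that *Tbx6*, *Msgn1* and *Mesp2* serve, went in both directions. Of 17 tested, 5 rose and 2 fell, with a median log2 fold change of 0.42, and 1 was at least 3-fold higher in WT replicate 1 than in replicate 2. *Nkx1-2*, a marker of axial progenitors, was measured at 47.3 and 29.1 normalized counts in the WT libraries and at 621 and 327 in those labelled *Taf4a*-/- (log2 fold change 3.57 ± 0.40, adjusted p = 0.00329). *Tcf15*, known from early somites and from the epiblast, rose from 41.2 and 24.9 to 314 and 248 (log2 fold change 3.08 ± 0.33, adjusted p = 0.00309). *Cyp26a1*, which degrades retinoic acid, fell by 1.09 on the log2 scale (adjusted p = 0.0131), and the Wnt target *Axin2* was not called (log2 fold change 0.76, adjusted p = 0.140). The clock and segment genes *Dll1*, *Dll3* and *Ripply1* were not called, *Lfng* was called higher (0.80), and *Hes7* and *Cdx4* were under the limit for testing. The count that rose was 3 without WT replicate 2 or without *Taf4a*-/- replicate 1, 1 gene was called lower when any single library was left out, the call of *Cyp26a1* was lost without WT replicate 2 (adjusted p = 0.0812), and that of *Lfng* in 3 of these fits (adjusted p up to 0.188).

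Among later derivatives of streak mesoderm and endoderm, the genes called were lower. In the list of cardiac and lateral mesoderm, 4 of 12 tested genes fell and none rose, led by *Tbx5* (log2 fold change -2.87) and *Nkx2-5* (-2.64), both cardiac factors, though 1 was called higher without WT replicate 1 or without *Taf4a*-/- replicate 1. *Gata4* fell by 0.63, and *Pdgfra* (-0.18) was not called. In the list of node, notochord and definitive endoderm, 5 of 10 tested genes fell and none rose. *Shh* was at -2.18, *Foxa2* at -1.07 and *Gata6* at -0.78, and *Sox17* (-0.34) was not called. The median log2 fold change of that list was -0.93. No tested gene of either list was at least 3-fold higher in WT replicate 1 than in replicate 2. The count of genes of node, notochord and endoderm that fell was 3 without WT replicate 1, 1 without WT replicate 2 and 3 without *Taf4a*-/- replicate 2, and the calls of *Foxa2*, *Gata6* and *Gata4* were each lost in 2 or 3 of the 4 fits without 1 library (adjusted p up to 0.189). All 6 cardiomyocyte genes fell, with a median log2 fold change of -4.13, led by *Actc1* (-4.58) and *Myl2* (-4.46).

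Markers of other cells in which these factors are also known were examined as well. Of 12 tested genes of pluripotency and the epiblast, 7 rose and none fell (median log2 fold change 2.23), led by *Esrrb* (3.48) and *Dppa5a* (3.21), and *Dnmt3b* (1.39) and *Lin28a* (0.59) were not called. Their summed normalized counts were 15638 and 7205 in the WT libraries and 29226 and 28298 in those labelled *Taf4a*-/-, and *Pou3f1* had at most 1.96 in any library. Within WT, 5 of the 12 were at least 3-fold higher in replicate 1, *Pou5f1* among them at 1097 against 278 normalized counts, 3.94-fold, beside 4.47-fold for *Eomes*. The other 7 were not, among them *Esrrb* (1.28-fold), *Dppa5a* (1.35-fold) and *Klf4*, which was lower in replicate 1 (0.558). The part of these cells in the values of the factors was not tested. Without WT replicate 1, 11 of the 12 were called higher. Of 7 germ cell genes, 4 rose and none fell, led by *Prdm14* (3.54) and *Dppa3* (3.36), and 2 rose without WT replicate 2 or without *Taf4a*-/- replicate 1. No germ cell gene was at least 3-fold higher in WT replicate 1 on normalized count + 1. *Prdm1* (-0.73) and *Kit* (-0.40) were not called, but *Prdm1* was called lower without *Taf4a*-/- replicate 1 and *Kit* without WT replicate 1. The germ cell list summed to 2815 and 3142 in the WT libraries and 2831 and 2501 in those labelled *Taf4a*-/-. Most of each sum was *Kit*, at 2294 and 2724 in the WT libraries and 1983 and 1816 in those labelled *Taf4a*-/-.

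In the lists of the remaining tissues, at most 1 gene each was called higher and at most 1 lower. The lists are short, and of all genes tested 11.3% were called higher and 17.3% lower. Of 7 tested genes of intermediate mesoderm and kidney, in which *Lhx1* is used, *Ret* rose (1.87) and *Osr1* fell (-2.23), while *Wt1* (0.93) was not called and the sums were 2060 and 2527 in the WT libraries and 2499 and 2700 in those labelled *Taf4a*-/-. Neuronal genes were examined because *Evx1* and *Lhx1* are also used in interneurons, but the genes tested do not single out those cells. Of 4 tested, *Olig2* rose (2.28) and *Tubb3* (0.30) was not called. In this list 3 of the 4 (*Evx2*, *Olig2* and *Elavl3*) were at least 3-fold higher in WT replicate 1 than in replicate 2, with a median difference of 1.85 on the log2 scale, while 1 tested gene of craniofacial mesenchyme and none of the kidney or trophoblast lists reached that size. The neuronal list summed to 619 and 499 normalized counts in the WT libraries and 725 and 744 in those labelled *Taf4a*-/-. Under the limit for testing, *Dbx1* was at 24.5 and 1.04 in the WT libraries and 0 and 2.21 in those labelled *Taf4a*-/-. Means of *Neurog2*, *Lbx1* and *Neurod1* were also lower in the libraries labelled *Taf4a*-/-, and those of *Neurog1* and *Tbr1* were higher. Of 6 tested trophoblast genes, for *Eomes*, *Tfap2c* rose (1.44) and *Plet1* fell (-2.35), while *Elf5* was at 35.1, 17.7, 8.81 and 0 normalized counts and the list summed to 1295 and 1592 in the WT libraries and 1092 and 983 in those labelled *Taf4a*-/-. Of 6 tested genes of craniofacial mesenchyme, for *Gsc*, *Prrx1* rose (1.09) and *Twist1* (1.01) was not called, with sums of 3490.2 and 2252 in the WT libraries and 4675 and 5328 in those labelled *Taf4a*-/-. The calls of *Ret* and *Olig2* were lost without WT replicate 2 (adjusted p = 0.131 and 0.0661) or without *Taf4a*-/- replicate 2 (0.114 and 0.0687), *Wt1* was called higher without *Taf4a*-/- replicate 1 or without WT replicate 2, 2 neuronal genes and 3 genes of craniofacial mesenchyme rose without WT replicate 1, and 3 trophoblast genes fell without *Taf4a*-/- replicate 1. The part of these tissues in the values of the factors was not tested.

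**Figure D4:**
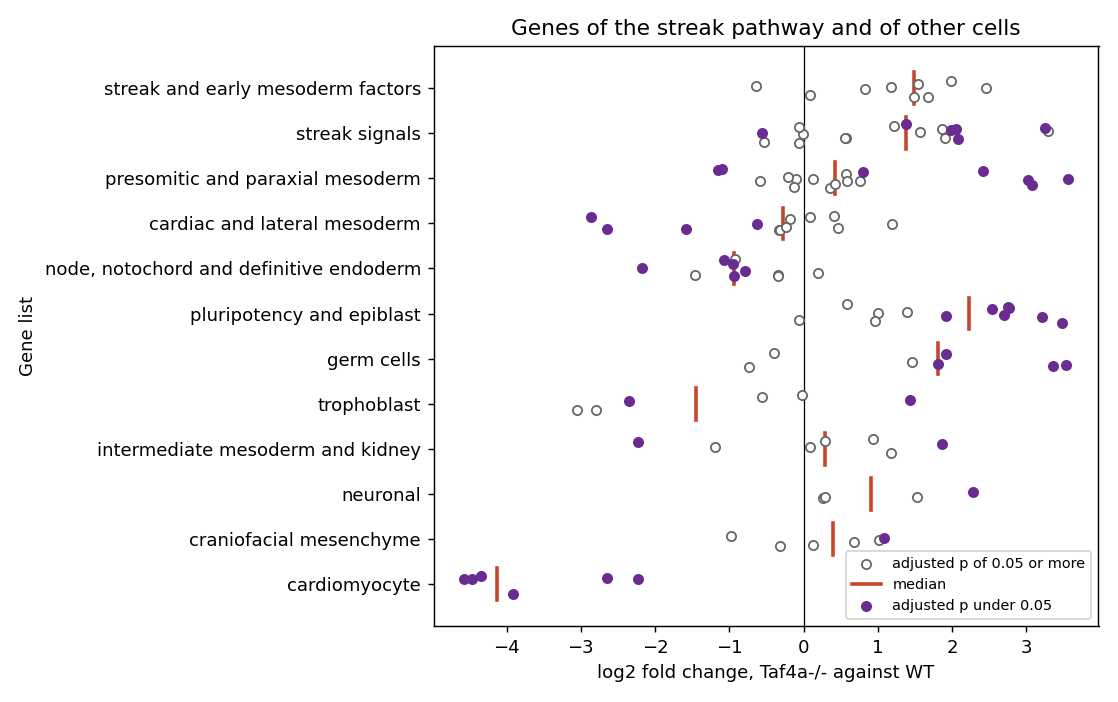
Log2 fold change of the libraries labelled *Taf4a*-/- against WT for every tested gene of the 10 factors and of 11 lists of related or other cells, with filled points at an adjusted p under 0.05 and red bars for the list medians (heights within a row carry no meaning). The factors have a median of 1.49 with no filled point, pluripotency and epiblast genes one of 2.23, and cardiomyocyte genes one of -4.13 with every point filled.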

How the data were processed

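Messenger RNA was sequenced from 4 mouse libraries after cardiac differentiation. Per the labels, polyA RNA was prepared with the TruSeq RNA v2 kit. The submitters' processing notes name CASAVA 1.8, TopHat 1.3.3, HTSeq 0.5.3p1, DESeq and mm9, and the study's methods name DESeq 2. The strand setting of the counting and the annotation release are not given in the sources used here. The authors deposited normalized counts per gene (unit: normalized count, a count of reads divided by 1 size factor per library), written with decimal commas. All values were whole multiples of the value of 1 read (tolerance 0.1 reads), and the size factors ran from 0.904 to 1.14.

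Values were tested as log2(normalized count + 1) with limma 3.58.1 (lmFit, eBayes with a variance trend) in R 4.3.3. Genes with a mean of 10 or more, 16926 of them, entered the fit, and a call needed a Benjamini-Hochberg adjusted p under 0.05 over all of them. The test was checked on simulated data with the same small spread between replicates for every gene. That spread was far below the gap between the WT libraries in most of the factors, so the check does not cover them. Fold changes on this scale understate the change of low genes. Intervals of a ratio between libraries are 95% intervals for counting error only, as reads were not marked by molecule. A count of 0 was taken to allow up to 3 reads. All 24637 identifiers were found in the GENCODE annotation of NCBIM37, which gave positions and exonic lengths. Figures were drawn with matplotlib 3.10.9 in Python 3.11.15.

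The 10 factors and the 11 lists of 122 related genes were chosen with earlier results of these data known. Of the lists, 3 genes were not found by symbol, and *Foxf1*, *Plet1* and *Tfap2c* were matched by older symbols. Named in the text are the 10 factors, *Taf4a*, in each list the 2 called genes with the largest change and the 2 with the highest mean, and the 3 genes most like each of the 3 most abundant factors. A gene of the kidney list that this rule picks is not reported here. *Nodal*, *Gdf3*, *Lefty2*, *Wnt8a* and *Cer1* among the streak signals, *Dll1*, *Dll3*, *Ripply1*, *Lfng*, *Hes7*, *Cdx4*, *Foxh1*, *Evx2*, *Elavl3*, *Klf4*, *Pou5f1*, *Pou3f1* and *Elf5*, and the cardiomyocyte markers *Tnnt2*, *Myh6* and *Myl7* were named after their values were seen. The same holds for the neuronal genes *Dbx1*, *Neurog2*, *Lbx1*, *Neurod1*, *Neurog1* and *Tbr1*. It holds also for *Hand1*, *Hand2*, *Isl1*, *Smarcd3*, *Kdr*, *Foxf1* and *Tbx20* of cardiac and lateral mesoderm. P-values measure the spread between these samples, which may be technical. The alternatives were other pseudocounts, filters, scalings, variance models and thresholds, voom, a replicate block, and the omission of each library in turn.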

Additional observations from a re-analysis of the deposited data

How the results depend on the processing

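With all libraries, no factor was called under other pseudocounts, equal totals, TMM scaling, quantile normalization, voom or without a variance trend, and of 123 values of the factors under the alternatives 111 kept their direction and their side of the threshold, 9 passed it and 3 reversed. Factors called higher were 1 with no filter on the mean (*Msgn1*), 2 at an adjusted p under 0.1 (*Eomes* and *Mixl1*), and 0 to 5 over the fits that left out 1 library. Their log2 fold changes over these fits ran from 0.59 to 4.34 for *T*, 0.60 to 2.76 for *Eomes*, 0.98 to 2.99 for *Mixl1*, 0.10 to 2.89 for *Mesp1*, 0.66 to 2.44 for *Mesp2*, 0.22 to 2.13 for *Gsc*, -0.23 to 1.89 for *Lhx1*, -0.18 to 0.34 for *Evx1* and -1.46 to 0.18 for *Tbx6*, with *Lhx1*, *Evx1* and *Tbx6* reversing in fits of fewer samples. At an adjusted p under 0.1, where 2 of the 9 tested factors were called higher, so were 2903 of all 16926 genes tested. With no filter on the mean, where *Msgn1* was called higher, so were 1721 of 24637 genes (6.99%). Over all genes tested, same-numbered samples did not deviate together (correlation of deviations 0.0118), so the numbers were taken as names. That value does not show whether the factors themselves shared such a deviation. Replicate 1 lay above replicate 2 in both genotypes for *T*, *Eomes*, *Mixl1*, *Gsc*, *Lhx1* and *Evx1*, but not for *Mesp1*, *Mesp2* and *Tbx6*. With a replicate block, 3 factors were called higher, *T* (2.46, adjusted p = 0.0367), *Eomes* (1.68, 0.0292) and *Mixl1* (1.98, 0.00919), and 1536 genes were called higher and 2657 lower, against 1906 and 2928 without it, with 9 streak signals called higher in place of 5. Genes called higher were 856 without a variance trend, 331 and 2903 at an adjusted p under 0.01 and 0.1, and 624 to 2476 without 1 library. Genes called lower were 1741 without a variance trend, 1119 at 0.01, and 1222 to 3038 without 1 library. Genes of the context lists called higher ranged from 19 to 38 and lower from 15 to 20 without 1 library, and 12 were called lower without a variance trend. Quantile normalization gave 2625 higher and 2459 lower calls and moved the median of all genes to 0.11 on the log2 scale, and *T* was then at 2.68 and *Evx1* at 0.39. A mean of at least 50 left *Mesp1*, *Mesp2* and *Tbx6* untested. Of 683 values of 49 other named genes, 6 reversed: *Cer1* ranged from -2.05 to 0.98, *Pdgfra* from -0.37 to 0.014, *Dll1* from -0.12 to 0.36, *Dll3* from -0.11 to 1.24 and *Ripply1* from -0.31 to 1.03 over the fits without 1 library. The cause of these shifts was not tested. The tests of edgeR and DESeq2 planned on recovered reads were not run. *Mesp2*, *Tbx6* and *Msgn1* had at most 27 reads in a library.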
